A study of Mus musculus with 6 samples.

Results

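The miR-17 seed family was followed in small RNA libraries from the nucleus accumbens (NAc), a forebrain region of reward and drug-associated learning. The family was taken by name, as the 5p miRNAs that hold the seed of miR-17-5p at bases 2 to 8: mmu-miR-17-5p, mmu-miR-20a-5p, mmu-miR-20b-5p, mmu-miR-93-5p, mmu-miR-106a-5p and mmu-miR-106b-5p, written below without the species prefix. All 6 are among the 1364 miRNAs of the deposited table, 1281 of them named in miRBase and 83 predictions of the authors. The NAc came from adult male C57BL/6N mice without a stated genetic change, trained for conditioned place preference (CPP), in which a compartment is paired with an injection. The saline group (3 libraries) was injected with saline, and the morphine group (3 libraries) with morphine. The design text of the series gives 3 samples from 6 mice in each group, whereas a legend of the study names single mice, so it is not settled whether a library pools mice. The labels list the 6 libraries as separate samples, and the p-values below measure the spread between these libraries.

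A miRNA is a short RNA that guides an Argonaute protein to messenger RNAs, mainly by pairing of its seed with the target, and so lowers their translation and stability. miRNAs with a shared seed are therefore predicted to share targets. The miR-17 family is known for promoting proliferation, through targets such as the cell cycle inhibitor Cdkn1a, and its Mir17hg transcript is a target of Myc and E2F factors. In the brain the family is best known from neural progenitors, with lower levels in mature neurons.

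The mature sequences are shown because the members differ by few bases outside the seed, which bears on how their reads can be told apart. They were taken from RefSeq (GRCm38.p6), which held all 6, and are written 5′ to 3′ with the seed, bases 2 to 8, in capitals.
miR-17-5p: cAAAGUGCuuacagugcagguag
miR-20a-5p: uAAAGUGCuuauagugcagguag
miR-20b-5p: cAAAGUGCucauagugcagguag
miR-93-5p: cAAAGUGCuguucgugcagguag
miR-106a-5p: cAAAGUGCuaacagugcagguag
miR-106b-5p: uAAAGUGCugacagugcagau

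Counting positions from 1 at the 5′ end, miR-106a-5p differs from miR-17-5p by U10A alone among 23 bases. miR-20a-5p differs from miR-17-5p by C1U and C12U, and miR-20b-5p by U10C and C12U. miR-93-5p is the most distant from miR-17-5p, with U10G, A11U, C12U and A13C, and it differs from miR-106b-5p at 5 of 21 bases. How the authors counted reads that match more than 1 miRNA is not given in the sources used here. Counts of these near-identical members are uncertain to that extent, most of all those of miR-106a-5p and miR-20b-5p, whose close relative miR-17-5p was far more abundant.

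The members come from 3 clusters on 3 chromosomes, given here from the GENCODE vM21 annotation of GRCm38. Mir17 (chr14:115043671-115043754) and Mir20a (chr14:115044157-115044263) lie on the plus strand in an exon of the non-coding host gene Mir17hg. Mir93 (chr5:138165523-138165610) and Mir106b (chr5:138165737-138165818) lie on the minus strand within Mcm7, which encodes a subunit of the replicative helicase. Mir106b is intronic there, and Mir93 overlaps an annotated exon of Mcm7. Mir20b (chrX:52742113-52742192) and Mir106a (chrX:52742503-52742567) lie on the minus strand of the X chromosome, Mir20b outside other genes and Mir106a over an exon of the non-coding gene Kis2.

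Total counts ranged from 4183333 to 9842050 per library. The level that 3 counts can show was 0.315 to 0.549 CPM, where CPM is counts per M counts after TMM scaling. Such limits and the intervals below cover counting error only, since PCR reads without molecular identifiers are not independent molecules. Saline replicate 2 stood apart from its group: its Spearman correlation with the other saline libraries was 0.869 to 0.874, below its correlation of 0.907 to 0.926 with the morphine libraries. Saline replicates 1 and 3 correlated at 0.952. Values without saline replicate 2 are given beside the results that it moved most. The labels give no batch, date or sequencing run. Summed levels of 5 neuronal miRNAs, such as miR-124-3p and miR-9-5p, were 127656 to 272558 CPM under saline and 177274 to 205599 CPM under morphine, so markers of the labelled brain tissue were present in each library. The sum of the endothelial miR-126a-3p and miR-126a-5p was 1485 to 5002 CPM in the saline group and 10984 to 16264 CPM in the morphine group. Of the 3 blood cell miRNAs in the table, among them miR-451a, the sum was 207.6 to 311 CPM against 358 to 571 CPM. The 5 choroid plexus and ciliated cell miRNAs, such as miR-204-5p, summed to 1948 to 2768 CPM against 941 to 994 CPM. For oligodendrocytes (3 miRNAs) the ranges were 1820 to 1903 and 1572 to 1963 CPM, and for microglia and other leukocytes (3 miRNAs) 13.2 to 58.2 and 15.1 to 24.3 CPM. The endothelial, blood and choroid plexus ranges did not overlap between the groups. Of these markers, miR-126a-3p and miR-451a met the study's criteria, defined below, as higher in the morphine group, and the neuronal miR-124-3p, the oligodendrocyte miR-219a-5p and miR-204-5p as lower. The other markers in the table did not meet them. Over all miRNAs, 19.4% met the criteria and 22.1% had ranges that did not overlap between the groups. The part of these cell types in the results below was not tested.

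miR-93-5p, from the Mcm7 cluster, was the most abundant member in every library and was lower in the morphine group. It had 1320, 1923 and 2650 counts in saline replicates 1, 2 and 3 and 1113, 509 and 495 counts in morphine replicates 1, 2 and 3. After TMM scaling its level was 242, 288 and 278 CPM in the saline libraries and 123, 74.6 and 77.7 CPM in the morphine libraries. The highest morphine value, in replicate 1, lay below the lowest saline value, so the groups did not overlap. The mean under saline was 269 ± 24.6 CPM (n = 3, SD) and that under morphine was 91.8 ± 27.2 CPM (n = 3, SD), 2.93-fold lower. The log2 fold change of morphine over saline was -1.55 (SE 0.47), with an unadjusted p of 0.0035 and an adjusted p of 0.0511 by the quasi-likelihood test of edgeR after Benjamini-Hochberg adjustment. In bulk tissue, fewer cells of a type and less of the miRNA per cell cannot be told apart.

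The median log2 fold change of all miRNAs was -0.15, and relative to it miR-93-5p was at -1.40. By the study's criteria for differentially expressed miRNAs (DEmiRNAs), a log2 fold change of at least 0.58 in size with an unadjusted p up to 0.05, miR-93-5p was the only member called, and it was downregulated. Of all 1364 miRNAs tested, 264 or 19.4% met these criteria, 132 lower (9.68%) and 132 higher (9.68%). With 1 of 6 members called lower and 0 called higher, the family's share was close to this background. An adjusted p under 0.05 was reached by 71 miRNAs (5.21%) and by 0 members in edgeR, where 1 member had an unadjusted p under 0.05. In DESeq2, 1 member (miR-93-5p) had an adjusted p under 0.05, as did 156 of all 1364 miRNAs. Separate ranges in the 2 groups were found for 302 miRNAs (22.1%) and for 1 member.

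The call of miR-93-5p did not rest on a single library or setting. It met the criteria in 20 of 20 alternative settings, with log2 fold changes from -1.88 to -1.40. Its adjusted p was under 0.05 in 10 of the 20, with a range from 1.1e-06 to 0.311. With saline replicate 2 left out, its log2 fold change was -1.50 (SE 0.29). Saline replicate 2, unlike for the members described next, was close to the other saline libraries for miR-93-5p, at 1.11 times their mean.

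**Figure D1:**
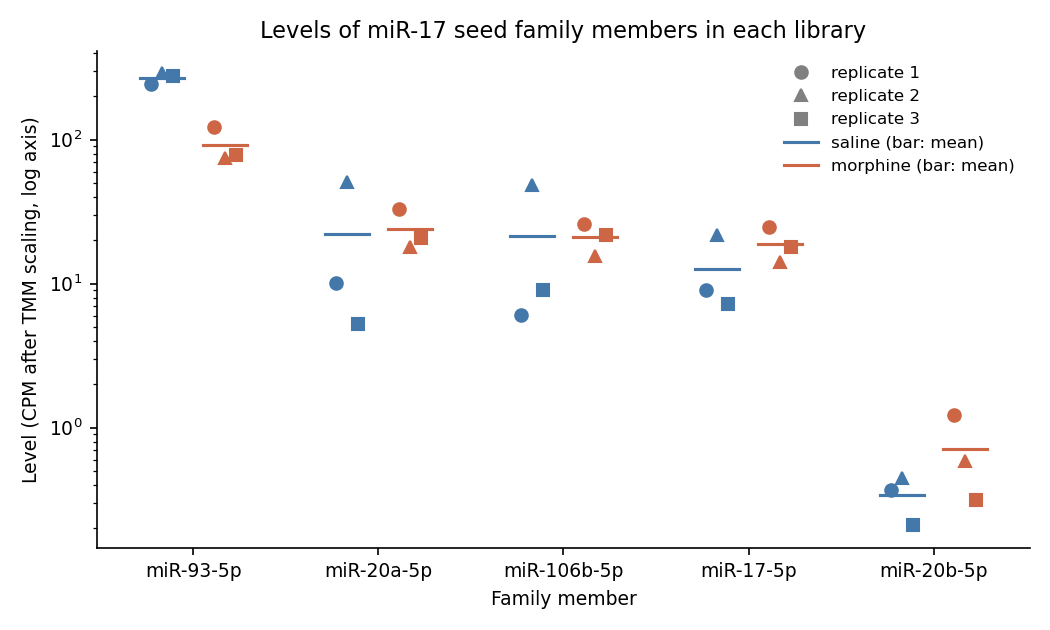
Level of 5 members (x axis) in each of the 6 libraries, in CPM after TMM scaling on a log axis, with symbols for replicates, colours for groups and bars for group means. For miR-93-5p all morphine points lie below the saline points, while for miR-20a-5p, miR-106b-5p and miR-17-5p the saline replicate 2 triangle lies apart from the other saline libraries. miR-106a-5p, with 3 counts or fewer in each library, is not drawn.

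The 3 members of middle abundance, miR-17-5p and miR-20a-5p from Mir17hg and miR-106b-5p from Mcm7, did not meet the criteria with all 6 libraries. miR-20a-5p had 55, 338 and 50 counts in saline replicates 1, 2 and 3 and 300, 123 and 133 counts in morphine replicates 1, 2 and 3. As levels these were 10.1, 50.7 and 5.24 CPM in the saline libraries and 33.2, 18.0 and 20.9 CPM in the morphine libraries. Saline replicate 2 was the highest of the 6 libraries, and saline replicates 1 and 3 were the lowest. The means were 22.0 ± 24.96 CPM (n = 3, SD) and 24.0 ± 8.06 CPM (n = 3, SD), a log2 fold change of 0.13 (SE 0.67) with an adjusted p of 0.927 (edgeR, Benjamini-Hochberg). This difference was far within the replicate spread.

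miR-106b-5p was likewise highest in saline replicate 2 and lowest in the other saline libraries. Its counts were 33, 325 and 86 under saline and 236, 106 and 138 under morphine. The corresponding levels were 6.04, 48.7 and 9.02 CPM in the saline group and 26.1, 15.5 and 21.7 CPM in the morphine group. Again saline replicate 2 lay above every morphine library and saline replicates 1 and 3 below every one of them. The log2 fold change was -0.01 (SE 0.66), with an adjusted p of 0.998 (edgeR, Benjamini-Hochberg).

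miR-17-5p, for which the family is named, was counted 49, 144 and 69 times under saline and 224, 96 and 115 times under morphine. Its level was 8.97, 21.6 and 7.24 CPM in the saline group and 24.8, 14.1 and 18.1 CPM in the morphine group. Here saline replicate 2 fell among the morphine libraries rather than above them. The means of 12.6 ± 7.84 CPM (n = 3, SD) and 19.0 ± 5.41 CPM (n = 3, SD) gave a log2 fold change of 0.59 (SE 0.58), with an adjusted p of 0.584 (edgeR, Benjamini-Hochberg).

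Leaving out saline replicate 2 brought all 3 of these miRNAs past the criteria, in the direction opposite to miR-93-5p. Against the mean of saline replicates 1 and 3, saline replicate 2 was at 6.62 times for miR-20a-5p, 6.47 times for miR-106b-5p and 2.67 times for miR-17-5p. Without it, the log2 fold change of miR-20a-5p was 1.67, with an SE of 0.40 (adjusted p = 0.000376, edgeR with Benjamini-Hochberg adjustment). That of miR-106b-5p was 1.47, with an SE of 0.40 (adjusted p = 0.00207, same edgeR test), a change of sign from the value with all libraries. That of miR-17-5p was 1.23, with an SE of 0.41 (adjusted p = 0.0134, same edgeR test). The same step moved the whole table, since the median log2 fold change of all miRNAs went from -0.15 to 0.20, and relative to this median the 3 values were 1.47, 1.27 and 1.03. Of the 1328 miRNAs tested without saline replicate 2, 278 (20.9%) met the criteria as higher and 214 (16.1%) as lower, against 3 and 1 of the 6 members. An adjusted p under 0.05 in edgeR was then reached by 386 of the 1328, against 71 of 1364 with all libraries. Small adjusted p-values were thus common in this fit. With only 2 saline libraries left, these values rest on a smaller group, and leaving out any of the other 5 libraries brought none of the 3 past the criteria.

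**Figure D2:**
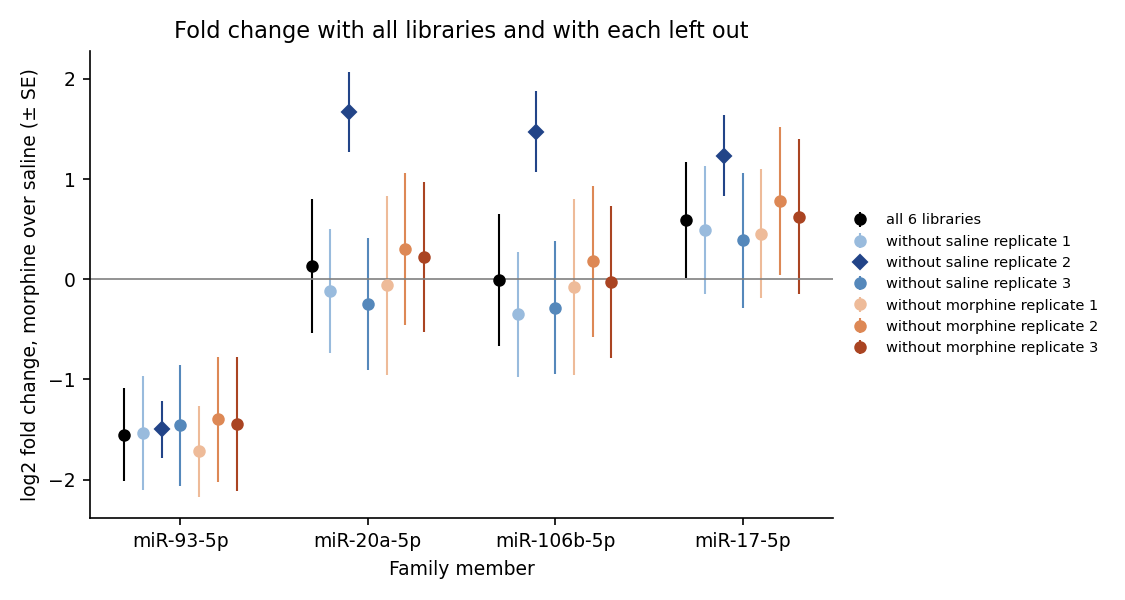
Log2 fold change of morphine over saline (y axis, ± SE) of the 4 most abundant members, fitted on all 6 libraries and with each library left out (colours, with a diamond for saline replicate 2). miR-93-5p stayed between -1.72 and -1.40, while the other members moved to between 1.23 and 1.67 only without saline replicate 2.

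The 2 members from the X chromosome cluster were close to the detection limit. miR-20b-5p was counted 2, 3 and 2 times under saline and 11, 4 and 2 times under morphine, which overlapped at 2 counts. Summed over each group these were 7 against 17 counts, a ratio of the rates of 2.37 with a 95% counting interval from 0.933 to 6.75. miR-106a-5p was counted 0, 1 and 0 times under saline and 3, 1 and 0 times under morphine, too few for a fold change. No difference was detected in either member, and so few counts leave a wide range of ratios possible.

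By mean level among the 1364 miRNAs, miR-93-5p ranked 142 in the saline group and 208 in the morphine group. miR-20a-5p ranked 324 and 307, miR-106b-5p 326 and 325, and miR-17-5p 371 and 335. miR-20b-5p ranked 799 and 670, and miR-106a-5p 1105 and 921. All members are 21 to 23 bases long and a read covers a whole mature miRNA, so their levels in CPM can be set side by side without a length term. In every library miR-93-5p was above each other member. The order of miR-20a-5p, miR-106b-5p and miR-17-5p differed between the saline libraries, with miR-20a-5p highest in replicates 1 and 2 and miR-106b-5p in replicate 3. In the morphine group miR-106b-5p was above miR-17-5p in 3 of 3 libraries and miR-20a-5p was above miR-106b-5p in replicates 1 and 2 only. The means of these 3 members, 24.0 ± 8.06, 21.1 ± 5.31 and 19.0 ± 5.41 CPM under morphine (n = 3, SD), lay within the spread between libraries, and these differences within libraries were not tested.

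miR-93-5p made up most of the summed level of the 6 members. The sum was 267, 410 and 299.6 CPM in saline replicates 1, 2 and 3 and 209, 123 and 139 CPM in morphine replicates 1, 2 and 3. Its means were 326 ± 74.9 CPM (n = 3, SD) and 157 ± 45.7 CPM (n = 3, SD). Without miR-93-5p the sum was 25.4, 121.6 and 21.7 CPM in the saline libraries and 85.6, 48.4 and 60.9 CPM in the morphine libraries. The sum with miR-93-5p was thus lower in each morphine library than in any saline library, whereas the sum of the other 5 overlapped, with saline replicate 2 the highest and saline replicates 1 and 3 the lowest.

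The make-up of the family was described by shares of its counts, without a test. miR-93-5p took 90.5% (95% Wilson interval 88.9 to 91.9), 70.3% (68.6 to 72.0) and 92.8% (91.7 to 93.6) of the family's counts in saline replicates 1, 2 and 3. In morphine replicates 1, 2 and 3 it took 59.0% (56.7 to 61.2), 60.7% (57.3 to 63.9) and 56.1% (52.8 to 59.3). These shares rest on family totals of 1459, 2734 and 2857 under saline and of 1887, 839 and 883 under morphine. Saline replicate 2 lay between the other saline libraries and the morphine libraries, and the groups did not overlap. The mean share of miR-93-5p was 84.5% ± 12.3 (n = 3, SD) under saline and 58.6% ± 2.33 (n = 3, SD) under morphine. The shares of miR-17-5p (2.42 to 5.27% against 11.4 to 13.0%), miR-20a-5p (1.75 to 12.4% against 14.7 to 15.9%) and miR-106b-5p (2.26 to 11.9% against 12.5 to 15.6%) were higher in each morphine library than in any saline library. Shares of a whole add up to a fixed total, so these rises and the fall of miR-93-5p are not separate measurements. Such separation was common in the table. It was found for the levels of 22.1% of all miRNAs. It was also found for 48.8% of the log2 ratios of miR-93-5p to another miRNA.

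**Figure D3:**
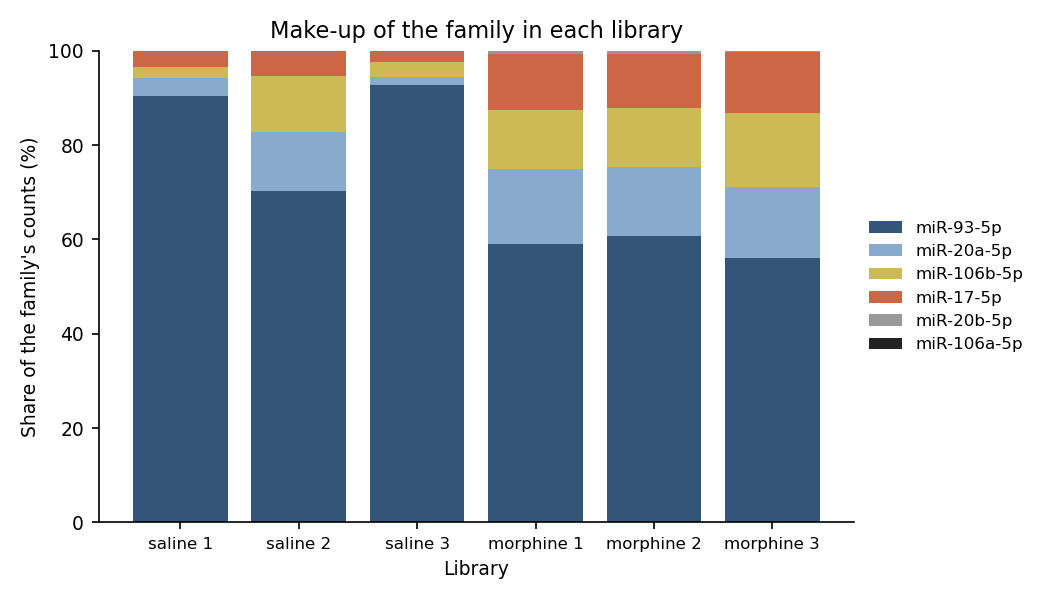
Share of the family's counts (y axis, %) taken by each of the 6 members (colours) in each library (x axis). miR-93-5p filled 70.3 to 92.8% of the saline bars and 56.1 to 60.7% of the morphine bars.

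A ratio of 2 miRNAs within a library does not depend on the scaling of the library. miR-93-5p was at 26.9, 13.4 and 38.4 times the count of miR-17-5p in saline replicates 1, 2 and 3, and at 4.97, 5.30 and 4.30 times in morphine replicates 1, 2 and 3. Over miR-20a-5p the ratios were 24.0, 5.69 and 53.0 under saline and 3.71, 4.14 and 3.72 under morphine. Over miR-106b-5p, from the same Mcm7 transcript, they were 40.0, 5.92 and 30.8 against 4.72, 4.80 and 3.59. In all 3 pairs saline replicate 2 was the lowest saline library and still above every morphine library. The log2 ratio under morphine minus that under saline was -2.30, -2.32 and -2.16, and without saline replicate 2 it was -2.72, -3.20 and -3.01.
The 4 pairs tested, with miR-25-3p below as the fourth, were chosen after their values were seen. Each gave p = 0.1 in an exact two-sided permutation test, the smallest that 3 libraries against 3 allow, and 0.1 after Benjamini-Hochberg adjustment over the 4. Of the log2 ratios of miR-93-5p to each of the 1363 other miRNAs, 665 or 48.8% had separate ranges in the 2 groups, so such a separation was common in this table.

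The opposite arms of the hairpins give a second measurement of each precursor, since Dicer releases both strands and one of them is mostly degraded. The hairpins of the 3 members with at least 10 counts in total on each arm are shown 5′ to 3′ from RefSeq (GRCm38.p6). The 5p arm and then the 3p arm are in capitals.
Mir93: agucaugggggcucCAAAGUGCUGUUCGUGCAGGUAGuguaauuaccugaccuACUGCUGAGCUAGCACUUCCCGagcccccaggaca
Mir106b: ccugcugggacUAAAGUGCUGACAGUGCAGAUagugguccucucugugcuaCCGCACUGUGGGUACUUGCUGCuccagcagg
Mir17: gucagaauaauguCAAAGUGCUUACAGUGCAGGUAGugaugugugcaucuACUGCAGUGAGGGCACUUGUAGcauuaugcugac

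Of the 6 opposite arms, 4 are in the table, and miR-20b-3p and miR-106a-3p were not analysed here. Of the 4, 2 met the criteria as lower and 0 as higher, where 9.68% of all miRNAs met them in each direction. The median log2 fold change of the 3 with enough counts for one was -1.70, against -0.15 for all miRNAs. miR-93-3p was counted 35, 13 and 51 times under saline and 13, 8 and 10 times under morphine, a log2 fold change of -1.70, with an SE of 0.70 (adjusted p = 0.169 by edgeR with Benjamini-Hochberg adjustment). Its levels of 6.41, 1.95 and 5.35 CPM lay above the morphine levels of 1.44, 1.17 and 1.57 CPM without overlap. Both arms of Mir93 were thus lower in the morphine libraries. The call of miR-93-3p was kept in 12 of 20 alternative settings, and a GC offset, which brought it to -1.19, was among those that lost it. It was also lost without saline replicate 1 (-1.30) or 3 (-1.51), and with any of the morphine libraries left out (-1.79 to -1.57).

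The arms of Mir17 had fold changes of opposite sign, but that of miR-17-5p, 0.59 with an SE of 0.58, did not meet the criteria. miR-17-3p was counted 7, 19 and 30 times under saline and 6, 1 and 6 times under morphine, a log2 fold change of -2.04, with an SE of 0.83 (adjusted p = 0.160 by edgeR with Benjamini-Hochberg adjustment). In CPM the groups did not overlap, and the call was kept in 16 of 20 alternative settings, being lost after thinning and without saline replicate 3 (-1.73), morphine replicate 1 (-2.06) or morphine replicate 2 (-1.57). miR-17-5p was at 7, 7.58 and 2.30 times the count of miR-17-3p in saline replicates 1, 2 and 3 and at 37.3, 96.0 and 19.2 times in morphine replicates 1, 2 and 3. The log2 ratio of 5p to 3p, with 0.5 counts added to each arm, was higher in the morphine group by 2.82, and no saline library reached a morphine library. The exact two-sided permutation test gave p = 0.1, the smallest possible here, and 0.3 after Benjamini-Hochberg adjustment over the 3 hairpins. Leaving out each library in turn kept this difference at 2.28 to 3.29. It rests on few 3p counts, with 1 to 6 in each morphine library.

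Mir106b was the only one of the 3 hairpins with the 3p arm dominant. miR-106b-3p was counted 1399, 423 and 2414 times under saline and 1166, 1112 and 1093 times under morphine. It was at 42.4, 1.30 and 28.1 times the count of miR-106b-5p in saline replicates 1, 2 and 3 and at 4.94, 10.5 and 7.92 times in morphine replicates 1, 2 and 3. Saline replicate 2 was the library with the most 5p and the least 3p, and its arms were nearly equal. The 5p arm holds 42.9% GC and the 3p arm 63.6%, and the part of GC content in this was not tested. The log2 fold change of miR-106b-3p was -0.31, with an SE of 0.52 (adjusted p = 0.755), and without saline replicate 2 it was -0.72, with an SE of 0.28 (adjusted p = 0.0326), both by edgeR with Benjamini-Hochberg adjustment. With the GC offset on all libraries its sign changed, to 0.50 with an SE of 0.42 (adjusted p = 0.533, same edgeR test). The log2 ratio of 5p to 3p differed by 0.63 between the groups (exact two-sided permutation test, p = 0.8, and 0.9 adjusted over 3 hairpins), with saline values from -5.38 to -0.38. Without saline replicate 2 this difference was 2.20. For Mir93 the log2 ratio was 6.02 ± 1.01 (n = 3, SD) against 5.94 ± 0.40 (n = 3, SD), a difference of -0.08 (exact two-sided permutation test, p = 0.9, and 0.9 adjusted).
miR-20a-3p was counted 3 times in morphine replicate 1 and in no other library, which gives no fold change.

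**Figure D4:**
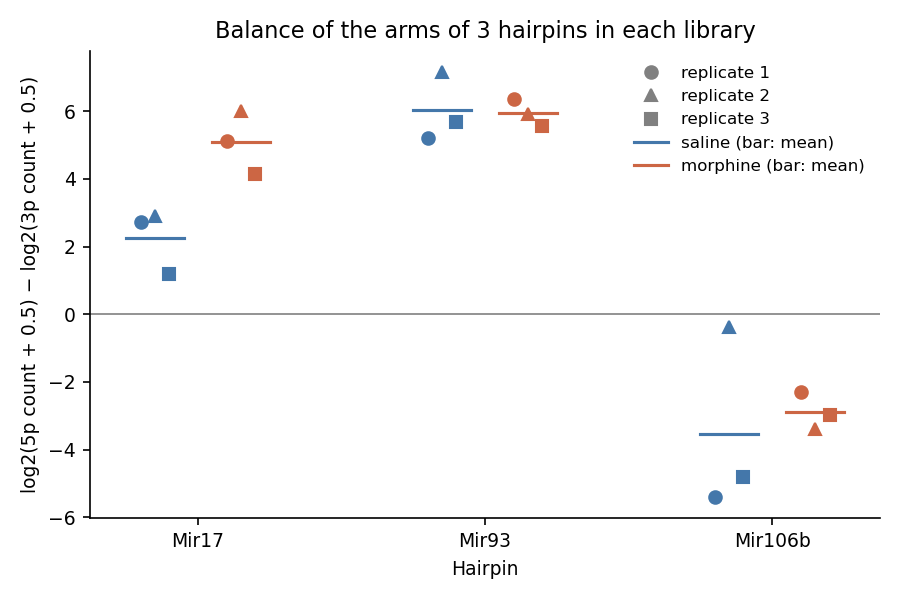
Log2 ratio of 5p to 3p counts (y axis, 0.5 counts added to each arm) of Mir17, Mir93 and Mir106b in each library, with symbols for replicates, colours for groups and bars for group means. The Mir17 groups are separate, the Mir93 groups overlap, and the Mir106b value of saline replicate 2, -0.38, lies above all other libraries.

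miR-25-3p, the third hairpin product of the Mcm7 cluster, has another seed and was higher in the morphine group, opposite to miR-93-5p. Its sequence is shown with its seed in capitals to set it beside the family.
miR-25-3p: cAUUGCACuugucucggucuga
Its level was 253, 121 and 193 CPM in saline replicates 1, 2 and 3 and 458, 459 and 487 CPM in morphine replicates 1, 2 and 3, without overlap. The log2 fold change was 1.31, with an SE of 0.46 (adjusted p = 0.1003 by edgeR with Benjamini-Hochberg adjustment), and the call was kept in 18 of 20 alternative settings, being lost with library totals (0.88) and without morphine replicate 3 (1.28). The count of miR-93-5p over that of miR-25-3p was 0.955, 2.38 and 1.44 under saline and 0.269, 0.162 and 0.160 under morphine. The difference in log2 ratio, morphine minus saline, was -2.96, and -2.62 without saline replicate 2. miR-25-5p, with 9, 1 and 21 against 3, 6 and 1 counts, had a log2 fold change of -1.53 (SE 1.04) and did not meet the criteria. It met them in 2 of 19 alternative settings, with library totals (-2.00) and without saline replicate 2, where it was at -2.06 with an SE of 0.82 (adjusted p = 0.0315, edgeR with Benjamini-Hochberg adjustment).
Within this cluster, which is transcribed with Mcm7, the products therefore held values of both signs. Both arms of Mir93 were lower and miR-25-3p was higher. The other arm of its hairpin, miR-25-5p, was at -1.53 and did not meet the criteria. Both arms of Mir106b were within the replicate spread when all libraries were used.

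**Figure D5:**
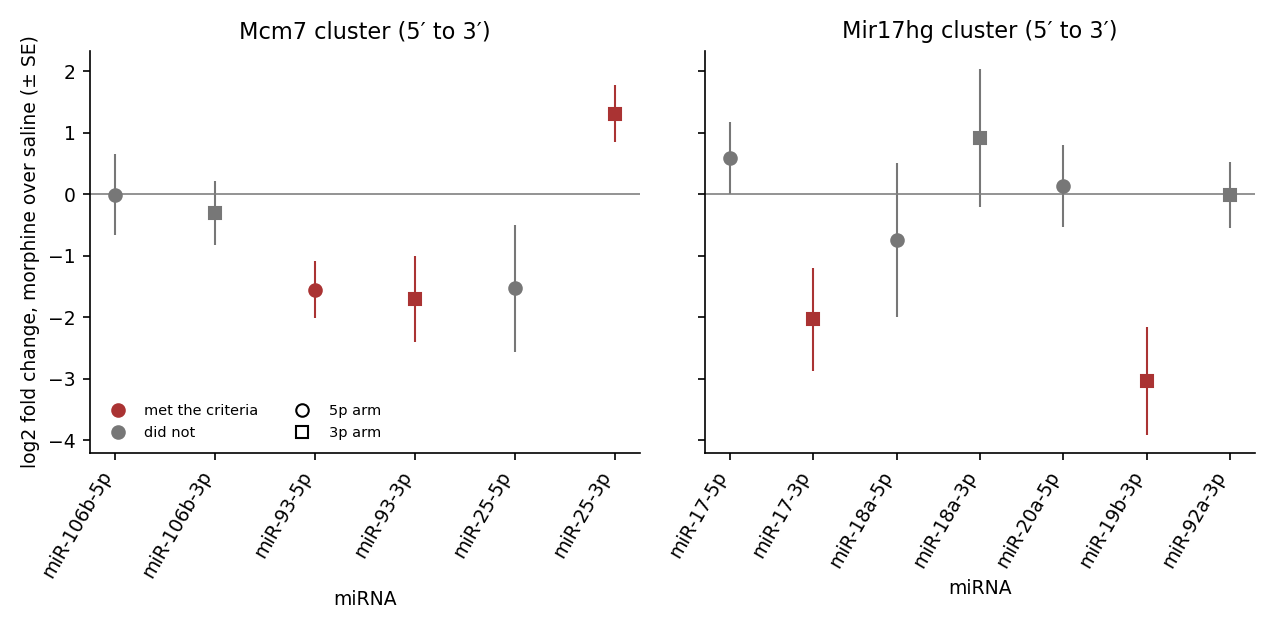
Log2 fold change of morphine over saline (y axis, ± SE) of the products of the Mcm7 and Mir17hg clusters in 5′ to 3′ order, with circles for 5p and squares for 3p arms and red for those that met the criteria. miR-93-5p (-1.55) and miR-25-3p (1.31), from the same cluster, lie on opposite sides of 0. miR-19a-3p, miR-19b-1-5p, miR-20a-3p and miR-92a-1-5p, with few counts, are not drawn.

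Of the 16 other miRNAs of the 3 clusters that were listed, 11 are in the table. Of these, 3 met the criteria as higher, 2 as lower and 6 did not, with a median log2 fold change of -0.01. The share called over all miRNAs was 19.4%, with 9.68% in each direction. Mir17hg gave 7 of the 11, with 0 higher and 2 lower, and the X chromosome cluster gave 2, both higher. miR-19b-3p, which was called lower, and miR-92a-3p are counted under Mir17hg here. The X chromosome cluster can also give both, so these counts do not separate the 2 clusters fully.
In Mir17hg, miR-19b-3p was the miRNA of the 11 with the highest value of saline replicate 2 against its group. It was counted 12, 294 and 17 times under saline and 22, 9 and 13 times under morphine, so that saline replicate 2 was at 22.2 times the mean level of the other saline libraries. Its log2 fold change of -3.04, with an SE of 0.87 (adjusted p = 0.0507, edgeR with Benjamini-Hochberg adjustment) was -0.02 without that library, and the call was lost, as it was without morphine replicate 1 (-3.12) and with the replicate block (-1.31), while DESeq2 gave it no p. miR-19a-3p, with 3, 16 and 1 counts against none, was at least 2.46-fold lower against a floor of 3 counts per library, a bound that rests on saline replicate 2. Without that library its call was lost, and the saline mean of 0.327 CPM was under the morphine floor of 0.414 CPM, which gives no bound.
miR-92a-3p, the most abundant product of Mir17hg here and one that the X chromosome cluster can also give, went the other way in that library. It was at 271, 57.4 and 263 CPM in the saline libraries and at 194, 164 and 228 CPM in the morphine libraries, a log2 fold change of -0.01 (SE 0.53). Thus saline replicate 2 was high for miR-17-5p, miR-20a-5p, miR-19a-3p and miR-19b-3p and low for miR-92a-3p, all of which Mir17hg encodes. In this order their mature sequences hold 47.8, 39.1, 34.8, 39.1 and 57.1% GC. The part of GC content in this split was not tested. miR-18a-5p and miR-18a-3p had 23 counts each in total, with log2 fold changes of -0.75 (SE 1.25) and 0.92 (SE 1.12). Without saline replicate 2, which was at 10.5 times the other saline libraries for miR-18a-5p, these were 1.004 (SE 1.60) and 0.80 (SE 1.17).
From the X chromosome, miR-363-3p was counted 4, 13 and 1 times under saline and 35, 32 and 22 times under morphine, without overlap. Its log2 fold change was 2.12, with an SE of 0.81 (adjusted p = 0.132, edgeR with Benjamini-Hochberg adjustment), and 3.44 without saline replicate 2. The call of miR-363-3p was lost without saline replicate 3 (1.64) or morphine replicate 1 (2.26). miR-363-5p had no count under saline and 11, 1 and 0 counts under morphine, at least 1.04-fold higher against the floor. This bound rests on morphine replicate 1, at 1.22 CPM, since morphine replicates 2 and 3, at 0.147 and 0 CPM, were under the floor. Its call was kept in 11 of 19 alternative settings, and the losses included DESeq2, thinning, the replicate block and the fits without saline replicate 3 or morphine replicate 1.

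Outside the family, RefSeq holds 1 further miRNA with the same seed, miR-6383, which was not analysed here. The same 7 bases stand 1 position earlier, at bases 1 to 7, in 5 miRNAs of the table, of which the 3 with a clear count in the morphine group and miR-350-5p are shown with these bases in capitals.
miR-291a-3p: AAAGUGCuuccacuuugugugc
miR-294-3p: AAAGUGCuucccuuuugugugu
miR-295-3p: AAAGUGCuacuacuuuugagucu
miR-350-5p: AAAGUGCaugcgcuuuggg
miR-291a-3p, miR-294-3p and miR-295-3p come from the miR-290 to miR-295 cluster, known from embryonic stem cells. miR-291a-3p had 0 counts under saline and 47, 41 and 34 under morphine. miR-294-3p was counted 1, 0 and 1 times under saline and 12, 15 and 15 times under morphine, a ratio of the rates of 20.5 with a 95% counting interval from 5.32 to 174.5 (adjusted p = 0.0301, edgeR with Benjamini-Hochberg adjustment). miR-295-3p was counted 0, 1 and 0 times under saline and 6, 8 and 13 times under morphine, a ratio of 26.3 with an interval from 4.34 to 1077 (adjusted p = 0.0511, same edgeR test). miR-350-5p was counted 96, 44 and 137 times under saline and 45, 28 and 9 times under morphine. Its mean was 12.8 ± 5.64 CPM (n = 3, SD) under saline and 3.50 ± 1.86 CPM (n = 3, SD) under morphine, a log2 fold change of -1.86, with an SE of 0.64 (adjusted p = 0.0895, same edgeR test), and its call was lost without morphine replicate 3 (-1.50). With these 7 bases at positions 1 to 7, then, 3 miRNAs met the criteria as higher, 1 as lower, and miR-291b-3p had a single count, beside the 9.68% of all miRNAs called in each direction.

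The miRNAs whose pattern over the 6 libraries was nearest to the family sum were found by the root mean square difference of log2(CPM + 1) after centring, among 400 miRNAs with a mean of at least 10 CPM. They were miR-490-3p (0.217), miR-874-3p (0.231), miR-378a-3p (0.234), miR-28a-5p (0.244) and miR-1843a-3p (0.259), against a median difference of 0.917 for the 400. Like the sum, all 5 were highest in saline replicate 2 or in saline replicate 3 and lower in each morphine library than in saline replicate 2. Their log2 fold changes ranged from -1.49 for miR-490-3p to -0.87 for miR-1843a-3p, and the first 4 met the criteria, where 9.68% of all miRNAs met them as lower. The 5 were chosen by likeness to a sum that was lower in each morphine library. Their lower levels under morphine therefore follow from the choice and are not a separate result.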

How the data were processed

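Small RNA libraries of the NAc, 3 from saline- and 3 from morphine-conditioned mice, were analysed from the deposited table. The authors removed reads with adapters, poly-N or low quality and reads outside their length limits, filtered the rest with Bowtie against ribosomal, transfer and other non-coding RNA and repeats, and matched what remained to miRBase. The authors deposited raw read counts per miRNA and library, and TPM values, which equal each count per M counts of its library and entered no test. The genome build, the miRBase release and the tool behind the study's DEmiRNA calls are not given in the sources used here.

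After TMM scaling, counts were fitted in edgeR 4.0.16 (R 4.3.3). Its quasi-likelihood test was run on all 1364 miRNAs with at least 1 count, with Benjamini-Hochberg adjustment over all of them. The fit was also run on simulated counts. These held no library apart from its group, as saline replicate 2 was, so they do not test that case. Log2 fold changes are morphine over saline, with SEs from the fitted model. Group and replicate of each library came from the sample records and column names. A fold against a group at 0 used a floor of 3 counts per library. Shares have 95% Wilson intervals and few-count ratios exact counting intervals. No pair of libraries had counts equal within sampling noise (smallest chi-square per degree of freedom 91.1).

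The members, the lists of opposite arms, cluster miRNAs, 7-base matches and cell type markers, and the rule for the nearest patterns, which together set the miRNAs named, were chosen with earlier results of these data known. Sequences were taken from RefSeq, which matched 1089 of the 1364 names. The alternatives were upper quartile, relative log expression and library total scaling, DESeq2 1.42.0 with its Wald test, edgeR's exact test, filterByExpr, at least 10 counts in total, miRBase names only, removal of 244 miRNAs with repeated counts, leaving out the top 10 miRNAs by abundance, libraries thinned to 4183333 counts, the replicate block, a GC offset per library (fitted on 366 miRNAs with a sequence, 85.3% of those with at least 300 counts), both together, and leaving out each library.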

Additional observations from a re-analysis of the deposited data

How the results depend on the processing

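With all libraries 1 member met the study's criteria, and 1 did so in every alternative except without saline replicate 2, where 4 did, so the range over left-out libraries was 1 to 4. The count of members at an adjusted p under 0.05, 0 with TMM and edgeR's quasi-likelihood test, was 1 (miR-93-5p) under upper quartile, relative log expression and library total scaling, DESeq2, filterByExpr, miRBase names only, thinning, the GC offset and the replicate block with GC offset, and 0 to 4 over left-out libraries, with 4 without saline replicate 2. For miR-106b-5p the log2 fold change, -0.01 with all libraries, ranged from -0.35 (without saline replicate 1) to 1.47 (without saline replicate 2). The opposite arms called went from 2 to 1 under thinning, the GC offset, the replicate block and the block with GC offset, and to 0 to 3 over left-out libraries, being 0 without saline replicate 3, morphine replicate 1 or morphine replicate 2. The cluster miRNAs called went from 5 to 3 with DESeq2, filterByExpr and the replicate block, and to 2 to 5 over left-out libraries, with 2 without morphine replicate 1. The miRNAs with the 7 bases at positions 1 to 7 went from 4 to 2 with filterByExpr, which kept only 2 of them, and to 3 to 4 over left-out libraries. The groups share replicate numbers, and the labels do not say whether these pair the libraries. The deviations of same-numbered libraries from the mean of their group had correlations of -0.23, -0.28 and 0.14 over 899 miRNAs. With 3 libraries in each group and saline replicate 2 apart from its own, these values cannot settle whether the libraries were paired. With the replicate block, the log2 fold change of miR-93-5p was -1.59 (SE 0.58, adjusted p = 0.216 by edgeR), and 179 of all miRNAs were called against 264.

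Over all miRNAs, 492 were called without saline replicate 2, with 386 at an adjusted p under 0.05 against 71, and without morphine replicate 1 none was, although 176 were called by unadjusted p. The other adjusted counts beyond 1.5 times the 71 were 153 to 160 (library total and upper quartile scaling, DESeq2, GC offset), 110 and 127 (miRBase names only, thinning) and 28 to 37 (at least 10 counts, repeated counts removed, replicate block, without morphine replicate 2). The share of calls that were higher, 50%, was 34.9% with library totals, 37.7% with upper quartile scaling and 61.5% with the block. Library totals moved the median log2 fold change of all miRNAs to -0.40, and relative to the median of each setting miR-93-5p stayed at -1.70 to -1.25 in every alternative. Apart from the changes named, whose cause was not tested, the depth of 4183333 to 9842050 counts limits miR-20b-5p, miR-106a-5p and the weaker arms.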
